A study of Mus musculus with 12 samples.

Results

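RNA of 9 genes that mark quiescent, recirculating T cells was described in 12 libraries of cultured mouse regulatory T cells (Tregs). The genes were Tcf7, Lef1, S1pr1, Klf2, Klf3, Bach2, Foxo1, Satb1 and Id3, found by gene symbol. They are 9 of the 55228 symbols in the file, and all 9 had a mean of at least 1 in TPM (transcripts counted per fixed total of transcripts), so that all 9 were among the 15043 genes tested.

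The study asked whether Tregs can be supplied with their own growth signal by tethering an orthogonal IL-2 to its receptor. All cells came from 1 pool of lymph node CD4+ T cells of 16 NOD.Foxp3-GFP mice, in which green fluorescent protein reports Foxp3 on the diabetes-prone NOD background. The labels give no age for the mice. GFP+CD25+ Tregs were sorted on 3 machines, activated as 3 separate cultures, and transduced with a retroviral vector on day 2. The exogenous IL-2 was washed out on day 4, and cells that carried the vector's reporter Thy1.1 were sorted on day 9. EV without IL-2 cells carried the empty vector and spent the last 5 days without IL-2, and EV+IL-2 cells carried the same vector and stayed in recombinant mouse IL-2. 1G12t and 3A10t cells carried a tethered construct, in which the orthogonal IL-2 variant 1G12 or 3A10 is linked to the orthogonal IL-2 receptor beta chain, and were kept without IL-2. Each group had 3 libraries. The 3 replicates of a group were separate cultures of the same pooled cells, so the p-values measure the spread between cultures and not between mice.

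A T cell that leaves the cell cycle and recirculates is held in that state by a small set of transcription factors. Foxo1 is kept out of the nucleus by PI3K and AKT signaling, which growth factor cytokines and antigen receptors activate, and in the nucleus it is known to drive Klf2, Tcf7 and the genes for homing to lymph nodes. Klf2 in turn drives S1pr1, the receptor with which T cells follow sphingosine 1-phosphate out of lymph nodes, and Tcf7, Lef1, Bach2, Satb1 and Id3 are associated with central and long-lived T cell states, in Tregs as in other T cells.

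Of the 9 genes, the one whose level moved most from EV without IL-2 in EV+IL-2 and in 3A10t Tregs was Tcf7. Tcf7 fell to 25.6% of its EV without IL-2 level in EV+IL-2 Tregs, and to 48.6% in 3A10t Tregs. S1pr1 fell to 68.0% in EV+IL-2 Tregs. Lef1, the closest relative of Tcf7 among the 9, stayed between 91.5% and 92.1% of its EV without IL-2 level in the other 3 groups and passed the test in none. No gene of the 9 passed the test in 1G12t against EV without IL-2.

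A start-site window is shown of the member that fell most and of the member that separated 1G12t from EV+IL-2 most clearly after Tcf7. Each window was picked because it holds the binding letters of Foxo or STAT factors. The windows run from 250 bases before to 50 bases after a RefSeq transcript start (GRCm38.p6), and 8 of the 9 members had at least 1, with 16 windows in all. For Tcf7 the capitals mark GTAAACA, the core that Foxo factors bind, and for Bach2 they mark a match to TTCNNNGAA, the core that STAT factors bind. Both starts are alternative starts inside the gene. The other window of Tcf7 held no GTAAACA, and the match shown lies just after its start.
Tcf7, chr11:52282546-52282845, minus strand: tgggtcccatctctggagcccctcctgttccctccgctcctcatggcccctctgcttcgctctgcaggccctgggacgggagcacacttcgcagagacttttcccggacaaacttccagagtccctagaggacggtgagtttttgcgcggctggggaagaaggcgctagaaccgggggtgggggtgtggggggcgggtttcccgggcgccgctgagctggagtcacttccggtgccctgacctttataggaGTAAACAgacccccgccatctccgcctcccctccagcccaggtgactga
Bach2, chr4:32417185-32417484, plus strand: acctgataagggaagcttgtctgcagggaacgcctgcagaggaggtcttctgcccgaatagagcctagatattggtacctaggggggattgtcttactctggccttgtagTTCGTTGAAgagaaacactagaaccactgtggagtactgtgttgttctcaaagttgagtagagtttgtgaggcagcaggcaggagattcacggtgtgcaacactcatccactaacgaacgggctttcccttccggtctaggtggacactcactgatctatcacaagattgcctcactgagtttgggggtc
Searched on both strands, GTAAACA was in 1 of the 16 windows and in 3.65% of all 32851 windows of the same length. TTCNNNGAA was also in 1 of the 16, and in 8.3% of all windows. CTTTGA, the core of Tcf7 and Lef1 themselves, was in windows of Bach2 and Lef1 and in 16% of all windows, and CACCC, the core of Klf factors, was in windows of 6 members and in 57.5% of all. Neither of the capital runs overlapped a match to another of the 4 motifs. These are matches of letters, and no binding was measured.

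Levels are given as scaled TPM, the deposited TPM divided by 1 factor per library, which ran from 0.846 to 1.08. TPM are per transcript length, which allows only a rough comparison of levels between genes. The cDNA was amplified, and the balance of long and short genes differed between libraries, as given below. TPM keep no depth, so the depth is unknown, and the spread between cultures is the only error given. In EV without IL-2 Tregs S1pr1 was the highest of the 9 at 872 ± 23 scaled TPM (SD, n = 3). Klf2 followed at 361 ± 55.4, Lef1 at 272 ± 14.8 and Tcf7 at 188 ± 31.5. Satb1 at 161 ± 5.01 and Klf3 at 157 ± 7.83 did not differ beyond their spread, and Id3 stood at 132 ± 6.88. Foxo1 at 81.6 ± 3.5 and Bach2 at 22.6 ± 1.53 were lowest. In EV+IL-2 Tregs Tcf7 went from place 4 to place 8 in this order, and S1pr1 stayed first and Bach2 last in all 4 groups.

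**Figure D1:**
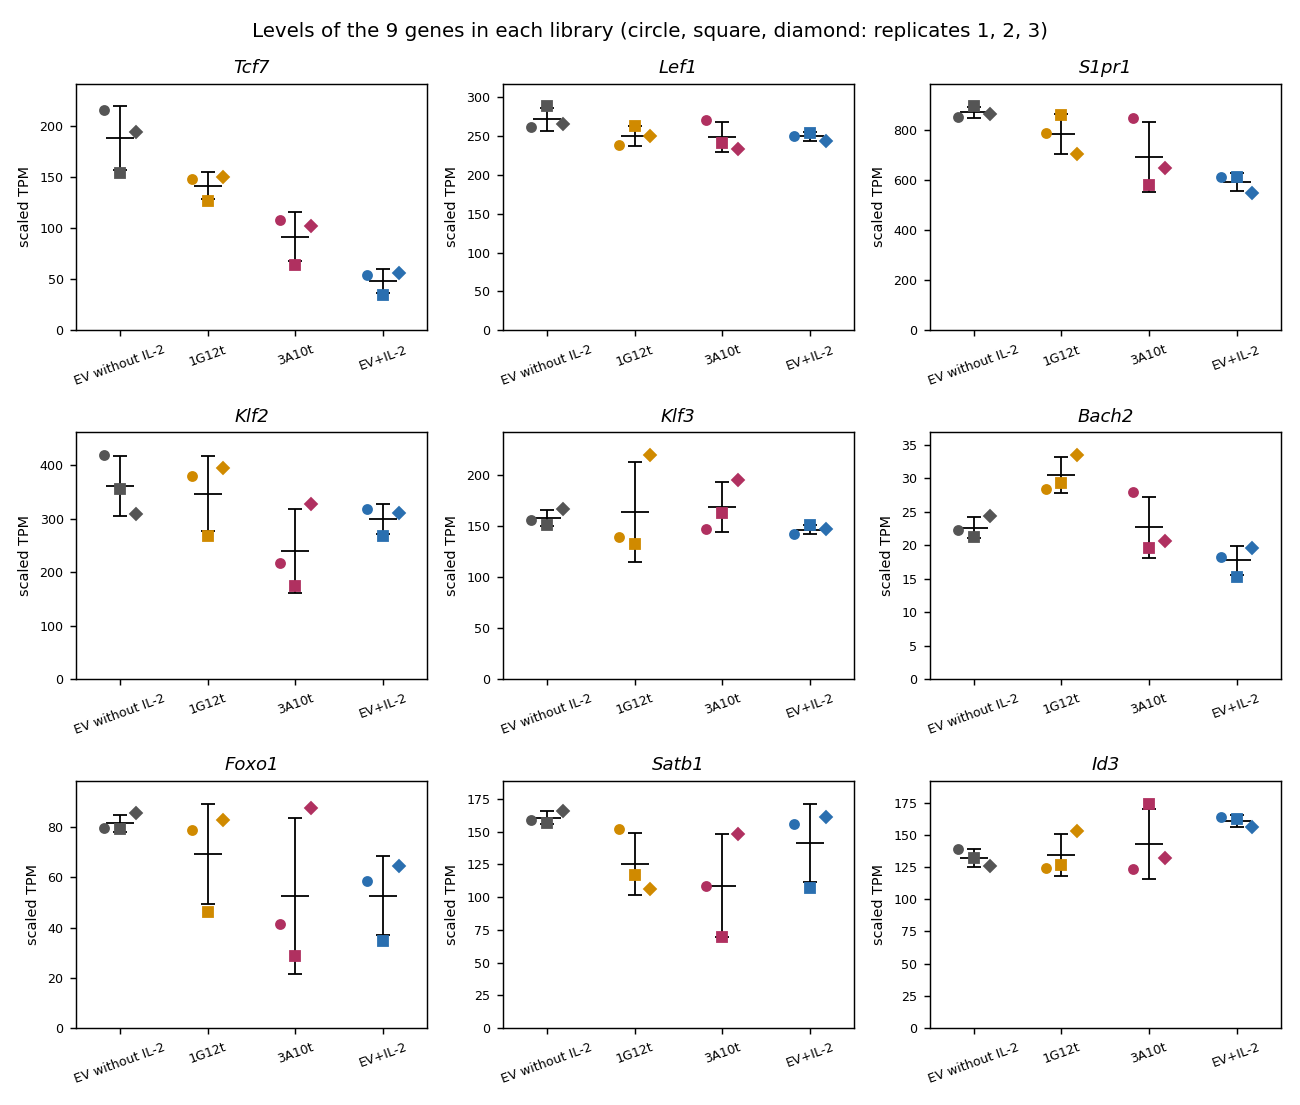
Scaled TPM (vertical axes, from 0) of the 9 genes in each of the 12 libraries, by group (horizontal axes). Symbols are replicates 1, 2 and 3, and the black bars are mean and SD. Tcf7 falls in steps from EV without IL-2 to 1G12t, 3A10t and EV+IL-2 with no overlap, whereas Lef1 lies between 234 and 289 in every library.

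Tcf7 (chr11:52252371-52283014, minus strand, ENSMUSG00000000782) encodes TCF-1, a transcription factor at the end of Wnt signaling that keeps T cells in a stem-like and central state. In EV without IL-2 Tregs it measured 216, 154 and 194 scaled TPM in replicates 1, 2 and 3. It measured 148, 127 and 150 in 1G12t Tregs, 108, 63.9 and 102 in 3A10t Tregs, and 54.1, 34.8 and 55.6 in EV+IL-2 Tregs. Every library of a group lay apart from every library of the other 3 groups, in the order EV without IL-2, 1G12t, 3A10t, EV+IL-2. Of the 15043 genes tested, 0.392% had all 4 groups apart from one another, and Tcf7 was the only one of the 9. Replicate 2 was the lowest library of Tcf7 in each group.

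The difference of Tcf7 between EV+IL-2 and EV without IL-2 was −1.96 ± 0.23 (SE) on the log2(scaled TPM + 1) scale, with an adjusted p of 0.000219 in limma. Counted from the most negative difference of all genes tested, Tcf7 stood at place 53 in that comparison. The difference between 3A10t and EV without IL-2 was −1.06 ± 0.23 (adjusted p = 0.0438). This call rested on narrow margins, since it held in 8 of 18 alternative settings and was lost on leaving out any library compared except replicate 1 of 3A10t, with adjusted p over all settings from 0.00654 to 0.255. The fits that left out libraries did not use the pairing of libraries by sort. With the replicate number as a block for the shared sort and all libraries kept, the adjusted p was 0.00748 and the SE fell to 0.11. 1G12t differed from EV without IL-2 by −0.40 ± 0.23, which did not pass the test (adjusted p = 0.741, 95% interval −0.90 to 0.10).

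The constructs were also set against soluble IL-2 and against each other. Tcf7 was 0.90 ± 0.23 higher in 3A10t than in EV+IL-2 Tregs (log2 scale, adjusted p = 0.0167), and 1.56 ± 0.23 higher in 1G12t than in EV+IL-2 (adjusted p = 0.000954). The call for 3A10t was lost with only the 6 libraries compared (adjusted p = 0.0933), without replicate 2 of EV+IL-2 (0.063) and without replicate 3 of 3A10t (0.0632). With the replicate block and all libraries its adjusted p was 0.000917. 3A10t was lower than 1G12t by a difference of −0.66 ± 0.23 (adjusted p = 0.0914). With the replicate number as a block, which stands for the shared sort, that difference passed the test with an adjusted p of 0.0269, and its SE fell to 0.11.

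Lef1 (chr3:131110471-131224356, plus strand, ENSMUSG00000027985) encodes LEF-1, which binds the same DNA letters as TCF-1. It measured 262, 289 and 265 scaled TPM in EV without IL-2, 251, 254 and 244 in EV+IL-2, 238, 264 and 250 in 1G12t, and 271, 242 and 234 in 3A10t. The EV+IL-2 libraries lay just below those of EV without IL-2, and the other groups overlapped. The difference between EV+IL-2 and EV without IL-2 was −0.12, with a 95% interval from −0.29 to 0.05 and an adjusted p of 0.369. The interval for 3A10t against EV without IL-2 ran from −0.30 to 0.04. These intervals lie above the corresponding intervals of Tcf7, which ran from −2.46 to −1.46 and from −1.55 to −0.56.

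Because both genes are given per length, the level of Tcf7 can be read as a rough share of that of Lef1 in the same library. It was 69.6% ± 15 (SD, n = 3) in EV without IL-2, 56.7% ± 7.59 in 1G12t Tregs, 36.7% ± 9.09 in 3A10t Tregs and 19.3% ± 4.95 in EV+IL-2 Tregs. The lowest library of EV without IL-2 was at 53.2% and the highest of EV+IL-2 at 22.8%. 1G12t, from 48% to 62%, overlapped EV without IL-2 in this share and did not overlap 3A10t, which ran from 26.4% to 43.8%.

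**Figure D2:**
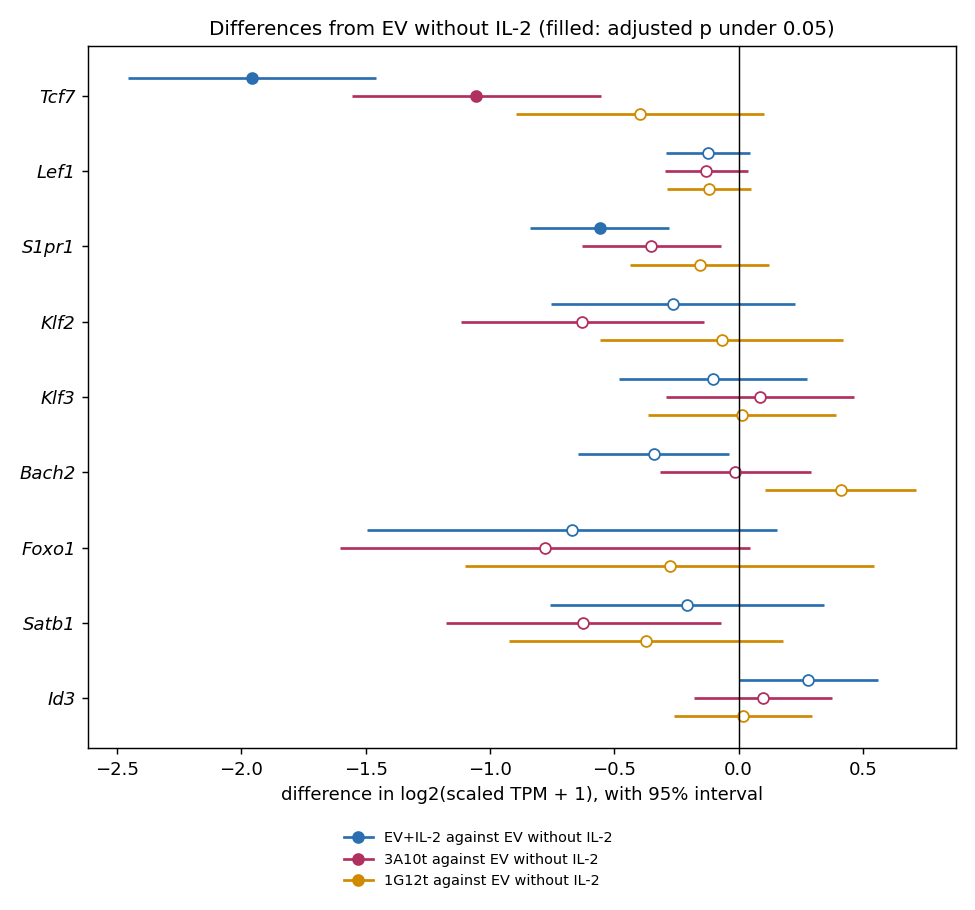
Differences from EV without IL-2 on the log2(scaled TPM + 1) scale (horizontal axis) for the 9 genes (vertical axis) in EV+IL-2, 3A10t and 1G12t, with 95% intervals from limma. Filled points passed the test at an adjusted p under 0.05, which are Tcf7 in EV+IL-2 and 3A10t and S1pr1 in EV+IL-2, and the intervals of Foxo1 are the widest.

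S1pr1 (chr3:115710433-115715072, minus strand, ENSMUSG00000045092) encodes the receptor for exit from lymph nodes. It measured 853, 897 and 866 scaled TPM in EV without IL-2, and 613, 613 and 551 in EV+IL-2. It measured 788, 862 and 704 in 1G12t, and 849, 580 and 648 in 3A10t. EV+IL-2 lay below EV without IL-2 and below 1G12t in every library, while 3A10t spread between them, with replicate 1 just under EV without IL-2 and replicate 2 inside EV+IL-2. The difference between EV+IL-2 and EV without IL-2 was −0.56 ± 0.13 (SE, adjusted p = 0.0143). The call was lost without replicate 2 of EV without IL-2, without replicate 3 of EV+IL-2 and without replicate 2 of every group, and its highest adjusted p was then 0.0872. 1G12t was higher than EV+IL-2 by 0.40 ± 0.13 (adjusted p = 0.0463), a call that held in 10 of 18 alternatives, with an adjusted p of up to 0.189. For 3A10t against EV without IL-2 the difference was −0.35 ± 0.13 (adjusted p = 0.127), and without replicate 1 of 3A10t it passed the test with an adjusted p of 0.00584.

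Klf2 (chr8:72319033-72321656, plus strand, ENSMUSG00000055148) encodes the factor that drives S1pr1. It measured 420, 355 and 309 scaled TPM in EV without IL-2, 319, 268 and 312 in EV+IL-2, 379, 267 and 395 in 1G12t, and 218, 175 and 327 in 3A10t. All groups overlapped. The lowest mean was in 3A10t, whose difference from EV without IL-2 was −0.63 ± 0.22 (95% interval −1.12 to −0.14, adjusted p = 0.121). EV+IL-2 differed from EV without IL-2 by −0.26 (95% interval −0.75 to 0.23, adjusted p = 0.53). So S1pr1 passed the test in EV+IL-2 and its known driver Klf2 did not, but the 2 differences were not tested against each other and their intervals overlap.

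Klf3 (chr5:64803388-64832901, plus strand, ENSMUSG00000029178) encodes a related factor that acts mainly as a repressor. Its libraries ran from 151 to 166 scaled TPM in EV without IL-2, from 142 to 151 in EV+IL-2, from 132 to 219 in 1G12t and from 147 to 195 in 3A10t. The highest library was replicate 3 of 1G12t, and no comparison passed the test, with differences from EV without IL-2 of −0.10 for EV+IL-2, 0.09 for 3A10t and 0.01 for 1G12t.

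Foxo1 (chr3:52268336-52353221, plus strand, ENSMUSG00000044167) had the largest SD of log2 values among the 9 in EV+IL-2, 1G12t and 3A10t. It measured 79.9, 79.3 and 85.7 scaled TPM in EV without IL-2. In EV+IL-2 it measured 58.5, 34.8 and 64.8, in 1G12t 78.9, 46.2 and 82.9, and in 3A10t 41.5, 28.6 and 87.7. EV+IL-2 lay below EV without IL-2 in every library, and 3A10t held both the lowest and the highest library of all 12. The SD of its log2 values was 0.06 in EV without IL-2 and 0.81 in 3A10t, where the median gene had an SD of 0.22. The difference from EV without IL-2 was −0.67 ± 0.37 in EV+IL-2 (adjusted p = 0.303) and −0.78 ± 0.37 in 3A10t (adjusted p = 0.211), and neither passed the test. Foxo1 is regulated mainly by its place in the cell, which RNA does not measure.

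Satb1 (chr17:51736187-51833290, minus strand, ENSMUSG00000023927) encodes a chromatin organizer needed for the Treg program in the thymus. It measured 159, 157 and 166 scaled TPM in EV without IL-2, 156, 107 and 161 in EV+IL-2, 152, 117 and 107 in 1G12t, and 109, 69.4 and 148 in 3A10t. 1G12t and 3A10t lay below EV without IL-2 in every library. Neither difference passed the test, at −0.37 ± 0.25 in 1G12t (adjusted p = 0.75) and −0.62 ± 0.25 in 3A10t (adjusted p = 0.155).

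Bach2 (chr4:32238804-32586108, plus strand, ENSMUSG00000040270) encodes a repressor of effector genes that keeps Tregs and other T cells from differentiating further. It measured 22.3, 21.3 and 24.3 scaled TPM in EV without IL-2, and 18.2, 15.3 and 19.6 in EV+IL-2. It measured 28.5, 29.3 and 33.5 in 1G12t, and 27.9, 19.5 and 20.6 in 3A10t. 1G12t was above all 9 libraries of the other groups, and EV+IL-2 was below EV without IL-2 in every library. The difference between 1G12t and EV+IL-2, 0.75 ± 0.14 (SE), passed the test with an adjusted p of 0.00349 and held in 17 of 18 alternatives, the exception being the one without replicate 2 of every group (adjusted p = 0.0622). Against EV without IL-2 the differences were 0.41 ± 0.14 in 1G12t (adjusted p = 0.683), −0.34 ± 0.14 in EV+IL-2 (adjusted p = 0.138) and −0.01 ± 0.14 in 3A10t (adjusted p = 0.97). Every 1G12t library of Bach2 lay above every EV without IL-2 library, as in 8.68% of all genes.

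Id3 (chr4:136143497-136145755, plus strand, ENSMUSG00000007872) encodes an inhibitor of E proteins that is high in central Tregs. It measured 139, 132 and 126 scaled TPM in EV without IL-2, 164, 162 and 156 in EV+IL-2, 124, 126 and 153 in 1G12t, and 123, 174 and 132 in 3A10t. EV+IL-2 lay above EV without IL-2 in every library, against the direction of Tcf7. The difference of 0.28 ± 0.13 did not pass the test (adjusted p = 0.189, 95% interval 0.00 to 0.56), except in a fit of only the 6 libraries compared (adjusted p = 0.0182).

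Over the 9 genes, the counts were set against all genes tested. In EV+IL-2 against EV without IL-2, 2 of 9 were lower at an adjusted p under 0.05 and 0 were higher, and of all genes 5.14% were lower and 8.17% higher. At an unadjusted p under 0.05, 3 of 9 were lower and 1 was higher, where 12.4% and 13.9% of all genes were. 8 of the 9 differences were negative, with a median of −0.26 against −0.01 over all genes. In 6 of the 9 genes every EV+IL-2 library lay below every EV without IL-2 library, as in 20% of all genes. In 3A10t against EV without IL-2, 1 of 9 was lower and 0 higher, against 1.60% and 0.452% of all genes, and the median difference was −0.35 against 0.03. At an unadjusted p under 0.05 there were 4 lower and 0 higher, against 15.1% and 10.9% of all genes.

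In 1G12t against EV without IL-2, 0 of 9 passed in limma in either direction, where 0.00665% of all genes were lower and 0.0133% higher. The median difference of the 9 was −0.12, and at an unadjusted p under 0.05 only Bach2 passed among the 9, being higher, as 5.33% of all genes were. In 3A10t against 1G12t, 0 of 9 passed in limma, where 2.96% of all genes were lower and 1.30% higher, and at an unadjusted p under 0.05 3 of 9 were lower, Tcf7, Klf2 and Bach2, where 15.7% of all genes were. In 3A10t against EV+IL-2, 1 of 9 was higher, which was Tcf7, and 0 were lower, where 10.3% of all genes were higher and 13.0% lower. In 1G12t against EV+IL-2, 3 of 9 were higher, which were Tcf7, S1pr1 and Bach2, and 0 were lower, where 9.70% of all genes were higher and 10.9% lower. The first 3 comparisons share the EV without IL-2 libraries and the last 2 share those of EV+IL-2, so these counts are not independent of one another. In bulk RNA, fewer cells of a central type and less RNA of these genes per cell cannot be told apart.

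The libraries with the same replicate number come from the same sort, and several of the 9 genes moved together within them. Replicate 2 was the lowest library in all 4 groups for Tcf7 and Foxo1, as it was for 2.94% of all genes tested, and in 3 of 4 groups for Klf2, Bach2 and Satb1. In replicate 2 of 3A10t, Foxo1 was 0.70 below its group mean on the log2 scale, Satb1 0.58 below and Tcf7 0.47 below. In replicate 2 of EV+IL-2 the same genes were 0.54, 0.38 and 0.43 below. Lef1 and Id3 were the lowest in replicate 2 in no group.

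**Figure D3:**
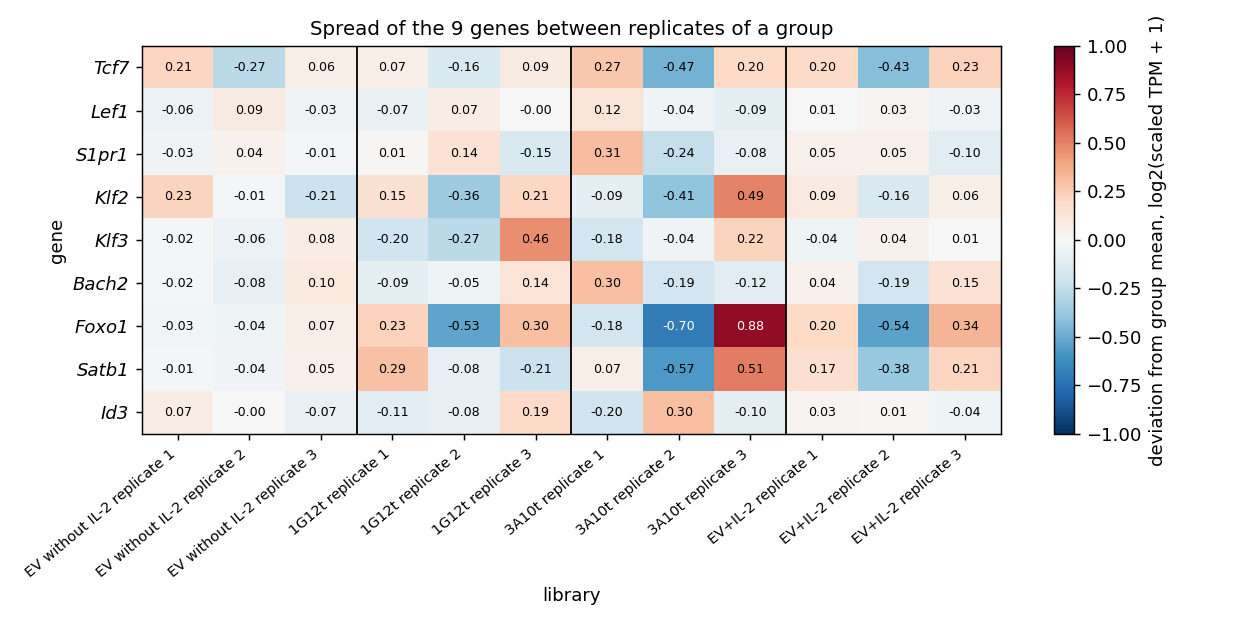
Deviation of each gene (rows) in each library (columns) from the mean of its group, in log2(scaled TPM + 1), with blue for lower and red for higher. Foxo1, Satb1 and Tcf7 are low in replicate 2 of EV+IL-2 and 3A10t, and Foxo1 reaches 0.88 in replicate 3 of 3A10t, while Lef1 stays within 0.13 of its group mean throughout.

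Replicate 2 of 3A10t also stood apart in other measures. Its 10 highest genes took 13.5% of its TPM. Replicates 1 and 3 of 3A10t, at 10.8% and 12%, were also above all libraries of the other groups, at 8.85% to 9.92%. In replicate 2 of 3A10t long genes were 0.36 lower relative to short ones on the log2 scale. On that measure replicate 3 of 3A10t was at −0.16 and replicate 1 at 0.01, where the other groups ran from −0.05 to 0.16. The Treg and T cell markers Foxp3, Il2ra, Ctla4, Ikzf2, Tnfrsf18, Cd4 and Cd3e were high in every library, with Foxp3 from 373 to 515 scaled TPM. Their means differed by group, with Foxp3 at 412 in 3A10t and 499 to 507 in the other groups. Il2ra was at 707 in EV+IL-2 and at 384 to 416 in the other groups. The summed B cell markers (4 genes) ran from 14.3 to 27.4 scaled TPM over all libraries, with 21.1 to 27.4 in 3A10t and 15.7 to 18 in EV without IL-2, and the summed CD8 markers (2 genes) from 3.48 to 6.57. Of the 5 myeloid markers Cst3, which Tregs here expressed at 444 to 770, made up nearly all, and Lyz2, S100a8, S100a9 and Csf1r stayed at or under 1.75. The part of these differences in the results was not tested.

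A list of homing and survival genes linked to Foxo1 and Klf2 was also counted. Of 10 such genes, 6 were lower and 1 was higher in EV+IL-2 than in EV without IL-2, with a median difference of −0.32. Over all genes tested, 5.14% were lower and 8.17% higher. Cxcr4, the receptor for CXCL12, measured 32.2, 32.2 and 31.2 scaled TPM in EV without IL-2 and 9.98, 8.69 and 9.46 in EV+IL-2, and fell by 1.67 on the log2 scale (adjusted p = 0.000127). Il7r, the IL-7 receptor alpha chain, measured 149, 170 and 175 against 64.1, 60.3 and 59.1, and fell by 1.41 (adjusted p = 0.000195). Cd69, which holds T cells in tissue by pulling the S1pr1 protein from the cell surface, measured 67.9, 71.3 and 65.9 against 186, 167 and 148, and was the one that rose, by 1.27 (adjusted p = 0.00605, and 0.107 without replicate 2 of every group). Ccr7, the homing receptor for lymph nodes, measured 444, 421 and 385 against 254, 272 and 251, and fell by 0.68 (adjusted p = 0.00159). So S1pr1 fell together with Cxcr4 and Ccr7 while Cd69, the antagonist of the S1pr1 protein, rose. Itgb7, an integrin gene of the same list, went the other way by 0.20 and did not pass the test (adjusted p = 0.252). Each EV+IL-2 library of Itgb7 lay above every EV without IL-2 library, as in 19.6% of all genes.

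In 3A10t against EV without IL-2, 1 of the 10 homing and survival genes was lower and 0 were higher (2 and 1 at an unadjusted p under 0.05). Over all genes, 1.60% were lower and 0.452% higher (15.1% and 10.9% at an unadjusted p under 0.05). The called gene was Cxcr4, with 23.2, 12.8 and 14.7 scaled TPM in 3A10t, and it fell by 0.92 (adjusted p = 0.036). This call held in 10 of 18 alternatives and was lost on leaving out any single library compared except replicate 1 of 3A10t, with an adjusted p of up to 0.439. Ccr7 measured 465, 481 and 480 in 3A10t, a difference of 0.19 from EV without IL-2 that did not pass the test (adjusted p = 0.268), and it was higher than in EV+IL-2 by 0.88 (adjusted p = 0.000333). Tcf7 and Cxcr4 thus stood between EV without IL-2 and EV+IL-2 in 3A10t, and Ccr7 did not. In 1G12t against EV without IL-2, 0 of 10 passed in either direction, and 1 was lower at an unadjusted p under 0.05, as were 1.72% of all genes.

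**Figure D4:**
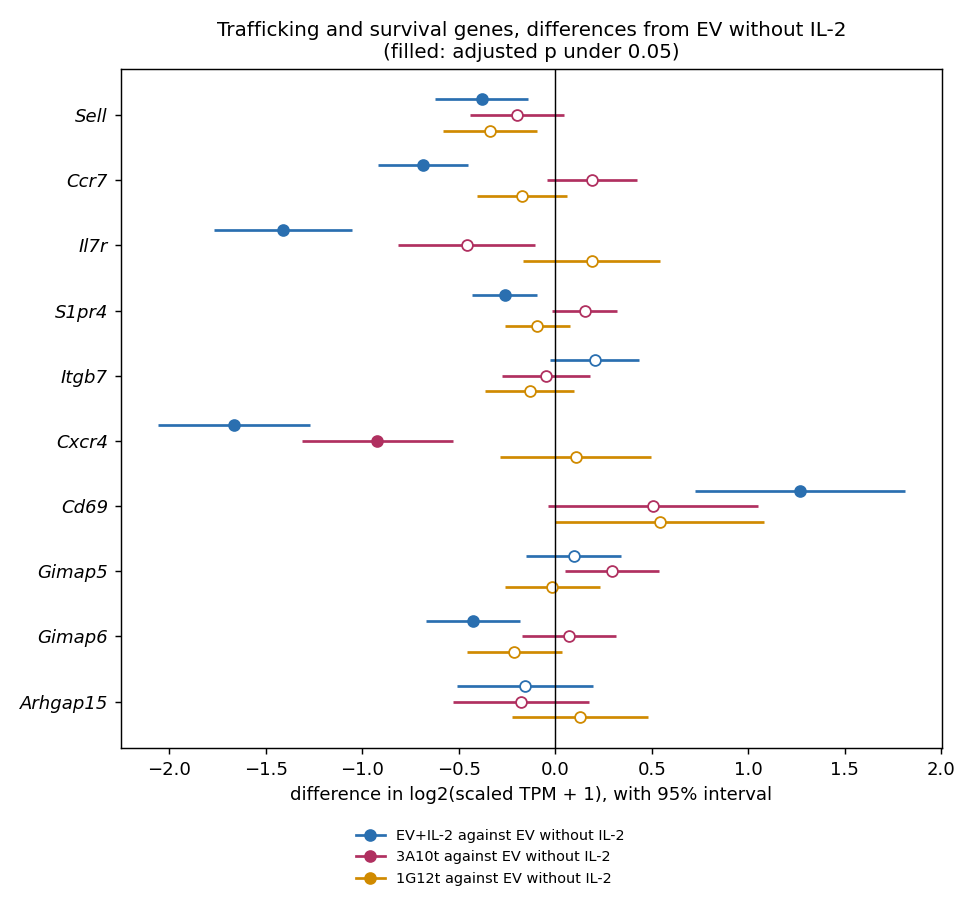
Differences from EV without IL-2 on the log2(scaled TPM + 1) scale (horizontal axis), with 95% intervals, for 10 homing and survival genes (vertical axis) in EV+IL-2, 3A10t and 1G12t. Filled points passed the test, which are 7 genes in EV+IL-2 and Cxcr4 alone in 3A10t.

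Of 19 other quiescence factors tested, 4 were lower and 1 was higher in EV+IL-2 than in EV without IL-2. The shares of all genes were 5.14% lower and 8.17% higher. Myb, a factor of proliferating progenitors, rose by 0.64 from a low level of 2.33 scaled TPM (adjusted p = 0.0314), a call that held in 8 of 17 alternatives and was lost, with an adjusted p of up to 0.23, on leaving out any single library compared except replicate 3 of EV without IL-2. Tsc22d3, which encodes the glucocorticoid-induced leucine zipper and is a known Foxo target, fell by 0.59 (adjusted p = 0.00264). Btg2, an antiproliferative factor, fell by 0.56 (adjusted p = 0.0026), and Ets1, which maintains naive T cells, fell by 0.56 (adjusted p = 0.00543). Cdkn1b, which encodes the cell cycle inhibitor p27, was the remaining one that was lower, and its call held in 9 of 18 alternatives, being lost on leaving out any single library compared except replicate 3 of EV+IL-2. Without replicate 2 of every group, the call of Ets1 was lost too (adjusted p = 0.0747).

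In 3A10t, 1 of the 19 was lower than in EV without IL-2 and 0 were higher, and at an unadjusted p under 0.05 there were 7 lower and 0 higher. Over all genes, 1.60% were lower and 0.452% higher (15.1% and 10.9% at an unadjusted p under 0.05). The called gene was Rbl2, which encodes p130, the pocket protein that holds resting cells out of the cell cycle. Rbl2 measured 117, 136 and 139 scaled TPM in EV without IL-2 and 79.3, 68 and 59.1 in 3A10t, with no overlap, and fell by 0.92 (adjusted p = 0.00704). The call was lost with only the 6 libraries compared, without replicate 3 of EV without IL-2 and without replicate 2 of every group, with an adjusted p of up to 0.293. In EV+IL-2 it measured 122, 125 and 119, inside the range of EV without IL-2. Rbl2 in 3A10t was also below EV+IL-2, by a difference of −0.83 ± 0.12 (adjusted p = 0.000793), and without replicate 2 of every group that adjusted p was 0.0538.

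Of the 12 partners of Tcf7 and Lef1 tested, 1 was lower in EV+IL-2 than in EV without IL-2, as were 5.14% of all genes. It was Jup, the beta-catenin relative plakoglobin, which went from 3.03 ± 1.03 to 0.91 ± 0.16 scaled TPM (adjusted p = 0.00803). Beta-catenin itself, from Ctnnb1, measured 177 ± 11.4 in EV+IL-2 and 214 ± 10.8 in EV without IL-2 and did not pass the test (adjusted p = 0.578). Every EV+IL-2 library of Ctnnb1 lay below every EV without IL-2 library, as in 20% of all genes. The fit uses 1 spread for all 4 groups, and in 3A10t the SD of Ctnnb1 was 73.3. Of these partners 0 passed in 3A10t or in 1G12t against EV without IL-2, and at an unadjusted p under 0.05 there were 5 lower and 1 higher in 3A10t and 3 higher in 1G12t. At that threshold 15.1% of all genes were lower and 10.9% higher in 3A10t, and 5.33% were higher in 1G12t.

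Of the 5 E proteins and Id proteins, 1 was higher in EV+IL-2 than in EV without IL-2, as were 8.17% of all genes. It was Id1, a relative of Id3, which rose from 2.03 ± 0.26 to 9.24 ± 1.24 scaled TPM (adjusted p = 0.000235). In 3A10t Id1 stayed at 2.5 ± 0.7, below EV+IL-2 by a difference of −1.56 (adjusted p = 0.000524). Of the 5, 0 passed in 3A10t against EV without IL-2. At an unadjusted p under 0.05 there were 1 lower and 0 higher, where 15.1% and 10.9% of all genes were. Of 5 Bach and Maf factors tested 0 passed in any comparison with EV without IL-2. In 3A10t 1 of them was lower at an unadjusted p under 0.05, as were 15.1% of all genes.

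Of 8 effector factors tested, 2 were higher and 0 were lower in EV+IL-2 than in EV without IL-2 (2 and 1 at an unadjusted p under 0.05). Over all genes, 8.17% were higher and 5.14% lower (13.9% and 12.4% at an unadjusted p under 0.05). Myc, the driver of growth, rose by 0.79 from 316 scaled TPM (adjusted p = 0.00493, and 0.112 without replicate 2 of every group), and Batf, an AP-1 factor of effector Tregs, rose by 0.70 from 110 (adjusted p = 0.00205). Prdm1, the effector gene that Bach2 is best known to repress, measured 5.19 ± 0.6 in EV+IL-2 and 5.69 ± 1.09 in EV without IL-2. Of these factors 0 passed in 3A10t or in 1G12t against EV without IL-2, and at an unadjusted p under 0.05 there were 1 lower and 1 higher in 3A10t and 1 lower in 1G12t. At that threshold 15.1% of all genes were lower and 10.9% higher in 3A10t, and 1.72% were lower in 1G12t.

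The genes most like Tcf7 and S1pr1 over the 12 libraries were sought among 10033 genes whose mean TPM was 5 or more. Likeness was the root mean square difference between centred log2 values. For Tcf7, which itself varied by 0.78 on this measure, the nearest were 1110032F04Rik at 0.27, Cxcr4 at 0.29 and St8sia6, a sialyltransferase gene, at 0.35. For S1pr1, which varied by 0.25, they were Crmp1 at 0.07, Sash3, an adaptor of lymphocytes, at 0.07, and Ndrg3 at 0.09. The points share their libraries, and no test was made of the likeness.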

How the data were processed

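Samples were grouped by their labels, 3 libraries in each of 4 groups. The authors trimmed reads with cutadapt 1.18, aligned them to mm10 with STAR 2.5.3 and estimated expression with RSEM 1.3.0 on a GENCODE annotation, and deposited TPM for 55228 symbols (tool versions per the submitters' processing notes). DESeq2 1.26 was the authors' tool for testing, and no count table was used here. cDNA was primed with oligo-dT and amplified before library preparation.

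TPM were divided by median-of-ratios factors. Genes whose mean TPM reached 1 were tested with limma 3.58.1 in R 4.3.3 (lmFit, then eBayes with its trend option), after adding a pseudocount of 1 to scaled TPM and taking log2, with 1 mean per group, all 12 libraries, and Benjamini-Hochberg adjustment over 15043 genes. The fold changes are on that scale, which understates changes of low genes. A gene was called at an adjusted p under 0.05. At the study's own threshold (p under 0.01 with at least 0.25 of log2 fold change) the counts of members were the same. The code was tested on simulated data. Coordinates and lengths are from GENCODE M21 on GRCm38, which held 53569 of the symbols. Promoter windows are from RefSeq. The reference tables used here gave no window for S1pr1. Plots were drawn with matplotlib 3.10.9 in Python 3.11.15.

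The 9 genes, the 6 lists of related genes and their tests were chosen with earlier results of these data known. From each list, up to 4 called genes with the largest differences were named in EV+IL-2 and in 3A10t against EV without IL-2. For members called in EV+IL-2 against EV without IL-2, the 3 most alike genes were named. Ccr7 and Rbl2 in further comparisons, Cdkn1b, Ctnnb1, Itgb7, Prdm1 and Id1 in 3A10t were named after their values were seen. Alternatives were pseudocounts of 0.1 and 5, no filter or a stricter one (mean TPM of 5), unscaled TPM, quantile normalization, the replicate block, eBayes without a trend, a lowess length correction (span 0.3) alone and with the block, the 6 libraries compared, and leaving out the libraries in turn. In the effector list 1 gene is not reported here. Leaving out replicate 2 of every group was added after the data were seen.

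The labels give the replicate number as a shared sort, so it pairs the libraries. Over 18 pairs with the same number, the mean correlation of deviations from the group means was 0.041, from −0.105 to 0.154, and over 36 pairs with different numbers it was −0.02. The blocked value stands beside a result where the call changed. It also stands beside the calls of Tcf7 in 3A10t against EV without IL-2 and against EV+IL-2, which the block did not change. For S1pr1 in EV+IL-2 against EV without IL-2, the block raised the adjusted p in limma from 0.0143 to 0.0183. In 1G12t against EV+IL-2 the block raised it from 0.0463 to 0.0481 for S1pr1 and from 0.00349 to 0.00404 for Bach2. These calls did not change either.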

Additional observations from a re-analysis of the deposited data

How the results depend on the processing

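The calls of Tcf7 in EV+IL-2 against EV without IL-2 and in 1G12t against EV+IL-2 held in all 18 alternatives. With the replicate block, which uses the pairing by sort, 1 member was lower in 3A10t than in 1G12t where 0 were without it, also with the length correction added (1), and the block changed no other call of a member. Members lower in 3A10t than in EV without IL-2 went from 1 to 0 with no filter, quantile normalization, eBayes without a trend, the length correction or only the 6 libraries compared. Members higher in 3A10t than in EV+IL-2 went from 1 to 2 with quantile normalization, the length correction, or the block with the length correction, and to 0 with only the 6 libraries, which gave 1 member higher in EV+IL-2 than in EV without IL-2. Leaving out libraries gave 1 to 2 members lower in EV+IL-2 than in EV without IL-2, 0 to 2 lower in 3A10t than in EV without IL-2, 0 to 3 lower in 3A10t than in 1G12t, 0 to 1 lower and 0 to 1 higher in 3A10t than in EV+IL-2, and 1 to 3 higher in 1G12t than in EV+IL-2. The cause of these changes was not tested. Unscaled TPM shifted the median of all genes to −0.18 in 3A10t against 1G12t and to 0.11 in 1G12t against EV+IL-2.

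Some differences that had not passed the test in the reported fit changed sign. S1pr1 in 3A10t against 1G12t, among them, passed it without replicate 1 of 3A10t (adjusted p = 0.026). With the length correction, alone or with the block, Foxo1 was 0.13 and Lef1 0.107 in 3A10t against EV+IL-2, Lef1 −0.067 in 1G12t against EV+IL-2, Lef1 0.175 and S1pr1 0.014 in 3A10t against 1G12t, and Lef1 0.021 in 3A10t against EV without IL-2. With quantile normalization, Bach2 was 0.10 in 3A10t against EV without IL-2, Klf2 0.006 in 1G12t against EV without IL-2, Foxo1 0.005 in 3A10t against EV+IL-2, and Id3 −0.058 and Klf3 −0.071 in 3A10t against 1G12t. With TPM as deposited, Id3 was −0.11 and Klf3 −0.12 in 3A10t against 1G12t, and Id3 −0.05 and Klf3 −0.063 in 3A10t against EV without IL-2. With only the 6 libraries, Lef1 was 0.022 in 3A10t against EV+IL-2.

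Leaving out libraries gave ranges over 0 as follows. In 3A10t against EV without IL-2 Bach2 ran from −0.16 to 0.076, Id3 from −0.059 to 0.199 and Klf3 from −0.025 to 0.18. In 1G12t against EV without IL-2 Id3 ran from −0.078 to 0.074, Klf2 from −0.18 to 0.11 and Klf3 from −0.22 to 0.15. In 3A10t against 1G12t Id3 ran from −0.11 to 0.18, Klf3 from −0.059 to 0.306, Lef1 from −0.072 to 0.04 and Satb1 from −0.509 to 0.025. In 3A10t against EV+IL-2 Foxo1 ran from −0.55 to 0.23 and Lef1 from −0.068 to 0.033, and in 1G12t against EV+IL-2 Klf3 ran from −0.11 to 0.27 and Lef1 from −0.031 to 0.044. Depth is unknown, and 3 cultures of 1 pool of mice limit every comparison.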
